A study of Rattus norvegicus with 12 samples.

Results

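Matrix metalloproteinases (MMPs) are zinc-dependent enzymes that cut proteins of the extracellular matrix, and tissue inhibitors of metalloproteinases (TIMPs) are the secreted proteins that block them. The genes described here are Mmp2, Mmp3, Mmp9, Mmp10, Mmp12, Mmp13, Mmp14, Timp1, Timp2 and Timp3. Their probes were taken by gene name, through the RefSeq accession of each array probe, with no threshold on a measured value. The genes themselves were chosen with earlier results of these data known. The shares of members called below therefore only describe this set. These 10 genes have 11 named probes among the 30367 on the array, because Mmp2 has 2 and each other gene has 1. Of the 10 genes, 8 were bright enough to be tested among 20425 genes, and Mmp9 and Mmp10 were not.

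RNA of the bladder body was measured in 12 male rats of the Fischer 344 strain on 1-colour Agilent arrays. The animals formed 3 groups of 4. Young rats were 6 months old and ate normal food freely. Old freely fed rats were 25 to 28 months old on the same food. Old restricted rats had the same range of ages but had eaten on only 3 days a week (Monday, Wednesday and Friday) from the age of 6 weeks, which came to an intake about 40% below that of the old freely fed animals. All animals had tap water and a regular light and dark cycle. The labels number 4 replicates in each group, taken here as 1 animal per array, and they do not give the exact age of an old animal. The extract is of whole bladder body, so fewer cells of a type and less RNA per cell cannot be told apart.

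A level is the log2 of the probe signal minus the 75th percentile of its array, so that a difference of 1 between animals is a 2-fold difference in signal. Levels of different probes were not set against each other, since probes differ in brightness. A probe is called well above background where most of its spots pass that mark in the scanner files. Between 21659 and 22294 probes did so on the young arrays, 23373 to 24644 on the old freely fed and 22566 to 23200 on the old restricted arrays. In a principal component analysis old freely fed replicate 2 scored 51.9 on the leading component, whereas the rest of its group scored 7.27 to 13.7. Both freely fed groups lay on 1 slide in separate rows, so age and slide row cannot be told apart in them. The restricted group lay alone on a second slide, so restriction and slide cannot be told apart either. It lay in row 1, as the young group did, and only the old freely fed group lay in row 2. Slide row therefore also differs between the old groups. The SD of the negative control signals was 26.7 to 35.7 on young, 3.29 to 10.8 on old freely fed and 7.82 to 25.8 on old restricted arrays. The part of slide row and background in the differences of dim probes was not tested. Of the marker genes of the labelled tissue, 14 of 16 urothelial and 11 of 12 smooth muscle genes were tested, and for the other 3 no probe was named. Markers of other cell types were also bright enough, such as 9 of 9 for mast cells and 7 of 10 for striated muscle. These counts therefore do not identify the tissue.

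MMPs are made as inactive precursors, and a prodomain has to be cut off or displaced before the enzyme works. Collagenases such as Mmp13 cut intact fibrillar collagen, stromelysins such as Mmp3 and Mmp10 cut many other matrix proteins and help to activate other MMPs, and the gelatinases Mmp2 and Mmp9 digest unfolded collagen. Mmp14 sits in the cell membrane, and together with Timp2 it brings the Mmp2 precursor to its activation. In the bladder wall the balance of these enzymes and inhibitors is known for its part in the turnover of the collagen and elastin that surround the muscle bundles.

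Mmp13, Mmp12, Mmp3 and Mmp10 are neighbours on chromosome 8 of the rat, and the 2 members that rose with age, Mmp13 and Mmp3, are among them. The 250 bases before the start of each of these 4 genes are therefore shown, 5′ to 3′, from the RefSeq promoter table of the GRCr8 assembly, which held 7 of the 10 genes. Capitals mark matches, searched on both strands, to the AP-1 element TGANTCA, the site of the Fos and Jun factors that is known to drive many MMP genes, and to the TATA box TATAAA.
Mmp13, GRCr8 chr8:12782579-12782828, plus strand: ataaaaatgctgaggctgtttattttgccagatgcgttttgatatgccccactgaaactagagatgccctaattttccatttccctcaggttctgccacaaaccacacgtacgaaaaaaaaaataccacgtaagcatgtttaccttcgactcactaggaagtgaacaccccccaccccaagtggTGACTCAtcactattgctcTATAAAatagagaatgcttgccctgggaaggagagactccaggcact
Mmp12, GRCr8 chr8:12866402-12866651, plus strand: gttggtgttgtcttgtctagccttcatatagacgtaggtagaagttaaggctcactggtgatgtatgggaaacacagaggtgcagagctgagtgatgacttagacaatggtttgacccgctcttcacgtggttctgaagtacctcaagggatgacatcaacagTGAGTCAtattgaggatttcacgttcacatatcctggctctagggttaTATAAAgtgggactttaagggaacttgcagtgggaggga
Mmp3, GRCr8 chr8:12925031-12925280, plus strand: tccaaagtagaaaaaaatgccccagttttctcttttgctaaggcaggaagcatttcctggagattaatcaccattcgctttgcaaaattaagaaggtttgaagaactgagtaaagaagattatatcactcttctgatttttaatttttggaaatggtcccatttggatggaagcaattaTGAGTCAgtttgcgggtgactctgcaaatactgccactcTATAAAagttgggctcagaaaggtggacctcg
Mmp10, GRCr8 chr8:12974457-12974706, plus strand: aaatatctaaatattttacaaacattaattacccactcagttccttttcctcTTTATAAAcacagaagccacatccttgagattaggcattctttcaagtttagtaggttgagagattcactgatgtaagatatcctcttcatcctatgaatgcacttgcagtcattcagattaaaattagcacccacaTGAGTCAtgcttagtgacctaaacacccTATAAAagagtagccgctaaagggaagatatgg

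Each of these 4 windows held 1 AP-1 match. It lay 66 to 60 bases before the start in Mmp13, 87 to 81 in Mmp12, 71 to 65 in Mmp3 and 61 to 55 in Mmp10. Among 33469 windows of the same length in the table, 6.34% held such a match. A TATA box match lay 47 to 42 bases before the start in Mmp13, 39 to 34 in Mmp12, 32 to 27 in Mmp3 and 33 to 28 in Mmp10, against 12.9% of all windows with a match anywhere. The windows of Timp1, Timp2 and Timp3 held 0 matches to either. The PEA3 element AGGAAG, an Ets factor site, was found 1 time each in Mmp13 and Mmp3, 2 times in Timp1 and in none of the windows of Mmp12, Mmp10, Timp2 and Timp3, against 29.5% of all windows. In pairwise alignments the windows of Mmp3 and Mmp10 shared 70.8% of aligned bases, and the other 5 pairs shared 59% to 63.1%. A match of letters is a description, and binding was not measured here.

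With age, in freely fed rats, Mmp13 and Mmp3 rose, and 0 of the 8 members tested fell. The 2 calls are 25% of the members tested, against 3.72% of all 20425 genes called in either direction, 1.63% called higher and 2.1% called lower. At an unadjusted limma p under 0.05 there were 4 members. The share of all genes at that cut is not given here, so this count and the unadjusted counts below have no baseline. The median log2 change of the 8 members was 0.07 and that of all genes was -0.05. Members whose animals did not overlap between the groups numbered 2 of 8, against 15.1% of all genes.

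In restricted against freely fed old rats, Mmp14 fell and 0 members rose, with 3 members at an unadjusted limma p under 0.05. This is 12.5% of the members tested, against 3.64% of all genes called in either direction, 2.02% called lower and 1.62% called higher. The groups did not overlap in 1 of 8 members, against 14.7% of all genes. Of the 8 members 7 had a lower mean in restricted rats, with a median log2 change of -0.24 against 0.02 for all genes.

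In restricted old against young rats, Mmp3 was higher, while Mmp14 and Timp2 were lower. These 3 genes are 37.5% of the members tested, against 9.18% of all genes called in either direction, 3.19% called higher and 5.99% called lower. The groups did not overlap in 4 members, against 18% of all genes. The median log2 change was -0.15, against -0.01 for all genes. The comparisons share groups, so a member that stands out in 1 group enters 2 of them.

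**Figure D1:**
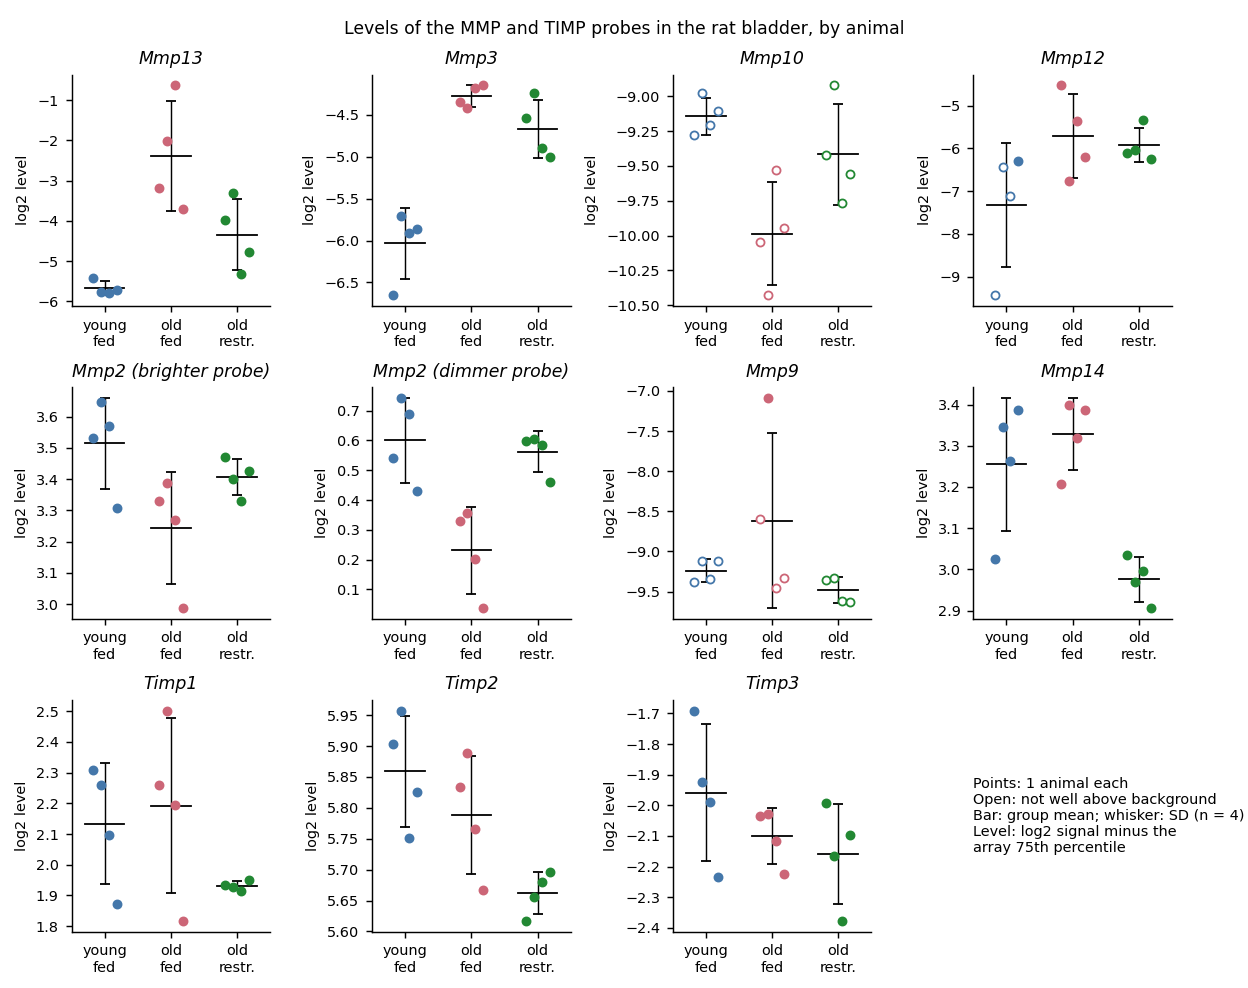
Log2 level of each member probe by animal in the young, old freely fed and old restricted groups, with the group mean as a bar, the SD (n = 4) as a whisker and open points for arrays where the probe was not well above background. Mmp13 and Mmp3 lie higher in every old freely fed animal than in every young one, and Mmp14 lies lower in every restricted animal than in every old freely fed one.

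Mmp13, collagenase 3, was lowest in young rats, at -5.41, -5.77, -5.80 and -5.72 in replicates 1 to 4. In old freely fed rats it was at -3.18, -2.00, -0.62 and -3.72. In old restricted rats it was at -3.98, -3.30, -5.32 and -4.78. Every old animal, on either diet, was above every young animal, while the freely fed and restricted old rats overlapped, because restricted replicate 2 was above freely fed replicate 4. The group means were -5.68 ± 0.18 (SD, n = 4) in young, -2.38 ± 1.37 in old freely fed and -4.35 ± 0.89 in old restricted rats. The probe has 10 spots on each array, and their SD within an array was 0.04 to 0.13, so the spread among old animals was wider than that among spots.

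The rise of Mmp13 with age was 3.30 on the log2 scale (SE 0.59), or 9.82-fold, with an adjusted p of 0.021 from limma. All 4 old freely fed animals were higher than the young ones, and the exact permutation test, two-sided, gave p = 0.0286, the smallest that 4 against 4 animals can give. It came to 6.55-fold when old freely fed replicate 3, the animal with the highest level, was left out, and to 5.59-fold with normexp background correction. The call was lost without young replicate 2 (limma adjusted p = 0.057). Between restricted and freely fed old rats the mean differed by -1.96 (95% interval -3.25 to -0.67), which did not pass (limma adjusted p = 0.092). It passed without old freely fed replicate 4, at -2.41 (limma adjusted p = 0.044). Restricted old rats were 1.33 above young rats (95% interval 0.04 to 2.62), with no overlap and a limma adjusted p of 0.18. In order of level, old freely fed rats came first, then old restricted, then young, and neither pair of neighbours in that order was separated by the test.

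Mmp3, stromelysin 1, was at -6.65, -5.71, -5.91 and -5.86 in young replicates 1 to 4. The old freely fed animals had -4.34, -4.42, -4.18 and -4.15, a spread of 0.27 among 4 animals. In restricted rats the levels were -4.54, -4.24, -4.90 and -5.0. Every old animal was above every young animal on both diets, and the old groups overlapped, with restricted replicate 2 above 2 of the freely fed animals. The rise with age was 1.76 (SE 0.21), or 3.39-fold (limma adjusted p = 0.0049). With normexp background correction it was 2.13-fold, still past the threshold.

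Restricted old rats were also higher in Mmp3 than young rats, by 1.36 (SE 0.21) or 2.57-fold (limma adjusted p = 0.0043). Both differences passed in each of the 24 alternative settings, which include the 12 fits that leave out 1 animal. Between the old groups Mmp3 differed by -0.40 (95% interval -0.85 to 0.06, limma adjusted p = 0.31). The order of the means was old freely fed, at -4.27 ± 0.13 (SD, n = 4), old restricted, at -4.67 ± 0.35, and young, at -6.03 ± 0.42, and the first neighbours in that order did not differ by the test.

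Mmp10, stromelysin 2, was not well above background on any of the 12 arrays and was not tested. Its levels were -9.28 to -8.97 in young, -10.43 to -9.53 in old freely fed and -9.77 to -8.92 in old restricted rats. Negative control spots, scaled in the same way, averaged -9.18 to -8.94, -10.45 to -9.97 and -9.81 to -9.54 on the same arrays. The Mmp10 probe was therefore lowest where the negative controls were lowest. With no filter on dim probes it was called lower in old than in young freely fed rats, by 0.85 (limma adjusted p = 0.030).

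Mmp12, the macrophage elastase, was well above background in all 8 old animals but in only 1 of 4 young ones, replicate 4. Young rats had -9.44, -6.43, -7.12 and -6.29. Freely fed old rats had -4.52, -6.75, -5.36 and -6.21. Restricted old rats had -6.10, -6.03, -5.34 and -6.24. Old freely fed replicate 2 lay within the range of the young, whereas all restricted rats lay above it. The difference with age was 1.61 (95% interval 0.19 to 3.03, limma adjusted p = 0.15), and that of restricted old against young rats was 1.39 (95% interval -0.03 to 2.81, limma adjusted p = 0.20). Restricted and freely fed old rats differed by -0.22 (95% interval -1.64 to 1.20). None of the 3 passed, and because 3 young animals were not above background the sizes of both differences from young rats depend on values near it.

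The cluster on chromosome 8 held 10 protein-coding genes from Mmp13 to Mmp7 in the GRCr8 order: Mmp13, Mmp12, Mmp1b, Mmp3, Mmp1, Mmp10, Mmp8, Mmp27, Mmp20 and Mmp7. Of these 9 have a named probe, and 4 (Mmp13, Mmp12, Mmp3 and Mmp7) were well above background on all 4 arrays of a group. Mmp7, matrilysin, was at -5.85 ± 0.34 (SD, n = 4) in young, -5.0 ± 1.17 in old freely fed and -5.62 ± 0.25 in old restricted rats, and its age difference of 0.85 did not pass (limma adjusted p = 0.27). Mmp27 was well above background in 3 old freely fed animals and 0 others. Its means were -7.94 ± 0.93 (SD, n = 4) in young, -7.24 ± 0.35 in old freely fed and -8.27 ± 0.58 in old restricted rats. Mmp1 was so in 1 young, 3 old freely fed and 2 old restricted animals, with similar means of -7.25, -7.26 and -7.04 in that order. Such counts also depend on the background, which differed between the groups, and they are no measure of a change in level. Mmp8, the neutrophil collagenase, and Mmp20, an enzyme of tooth enamel, were well above background in 0 of 12.

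The gelatinase Mmp2 was measured by 2 probes of 1 spot each, both well above background on all 12 arrays. On the brighter probe, which stands for the gene, young rats had 3.53, 3.65, 3.57 and 3.31. The old freely fed group had 3.33, 3.39, 3.27 and 2.99, and old restricted rats had 3.47, 3.4, 3.33 and 3.43. The freely fed groups overlapped, with old replicates 1 and 2 above young replicate 4. The age difference was -0.27 (SE 0.089, limma adjusted p = 0.097), and the difference between the old groups was 0.16 (95% interval -0.03 to 0.36, limma adjusted p = 0.32). Restricted old and young rats differed by -0.11 (limma adjusted p = 0.48).

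On the dimmer Mmp2 probe, fitted with all probes as rows of their own, young rats had 0.54, 0.74, 0.69 and 0.43. In old freely fed rats the levels were 0.33, 0.36, 0.20 and 0.04, all below the young ones. Restricted rats had 0.60, 0.60, 0.59 and 0.46, all above the old freely fed ones and within the range of the young. The age difference was -0.37 (SE 0.082, limma adjusted p = 0.037) and the difference between the old groups 0.33 (SE 0.082, limma adjusted p = 0.0498). The probes thus disagreed on the call and gave the same sign in both comparisons. In fits that left out 1 animal, the dimmer probe passed in 5 of 12 for age, with the call lost without young replicates 1, 2 or 3, old freely fed replicates 3 or 4 or old restricted replicates 1 or 2. It passed in 1 of 12 between the old groups, the fit without young replicate 4. Each group mean follows the order young, old restricted, old freely fed on both probes, at 0.60 ± 0.14 (SD, n = 4), 0.56 ± 0.07 and 0.23 ± 0.15 on the dimmer.

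Mmp9, the gelatinase of neutrophils and macrophages, was well above background on 1 of 12 arrays, that of old freely fed replicate 2, at -7.09. The other old freely fed rats had -8.60, -9.46 and -9.33, the young rats -9.38 to -9.11 and the old restricted rats -9.63 to -9.33. It was not tested, since it was not above background on all arrays of any group. The same animal had the highest summed level of 14 macrophage markers, 6.96 against 5.83 to 6.08 in the rest of its group, 5.44 to 5.72 in young and 5.56 to 5.97 in restricted rats. Its summed level of 7 neutrophil markers was also the highest, at -1.30 against -3.34 to -2.05 in the other 11 animals. It also had the highest sums of adipocyte markers, 5.24 against 3.69 to 4.36 in the other 11 animals, of mast cell markers, 1.32 against -1.02 to 0.84, and of mesothelial markers, 3.96 against 2.98 to 3.56. The part of these cell types in its Mmp9 level was not tested.

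Mmp14, the membrane-bound MMP that also cuts collagen, was the member that fell with restriction. Old freely fed rats had 3.21, 3.4, 3.32 and 3.39. Old restricted rats had 3.03, 2.97, 3.0 and 2.91, all of them lower. Young rats had 3.03, 3.35, 3.26 and 3.39, so that young replicate 1 lay among the restricted animals. The means were 3.33 ± 0.09 (SD, n = 4) in old freely fed, 3.26 ± 0.16 in young and 2.98 ± 0.05 in old restricted rats. The freely fed groups, neighbours at the top of that order, differed by 0.07 (95% interval -0.09 to 0.23, limma adjusted p = 0.56).

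Restricted old rats were below freely fed old rats in Mmp14 by 0.35 on the log2 scale, a fold of 1.28 (SE 0.073, limma adjusted p = 0.025). Over the 24 alternative settings the log2 change ran from -0.39 to -0.33. The call was lost in 6 of the 12 fits without 1 animal, those without old freely fed replicate 2, 3 or 4 or old restricted replicate 2, 3 or 4, with limma adjusted p-values of 0.053 to 0.076. Restricted old rats also fell below young rats, by 0.28 (SE 0.073, limma adjusted p = 0.038), a call that passed in 11 of the 24 settings. It was lost with 5 settings of scaling and model, among them quantile scaling and median centring, and without any of young replicates 2, 3 or 4, old freely fed replicate 3 or any of the 4 restricted animals.

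**Figure D2:**
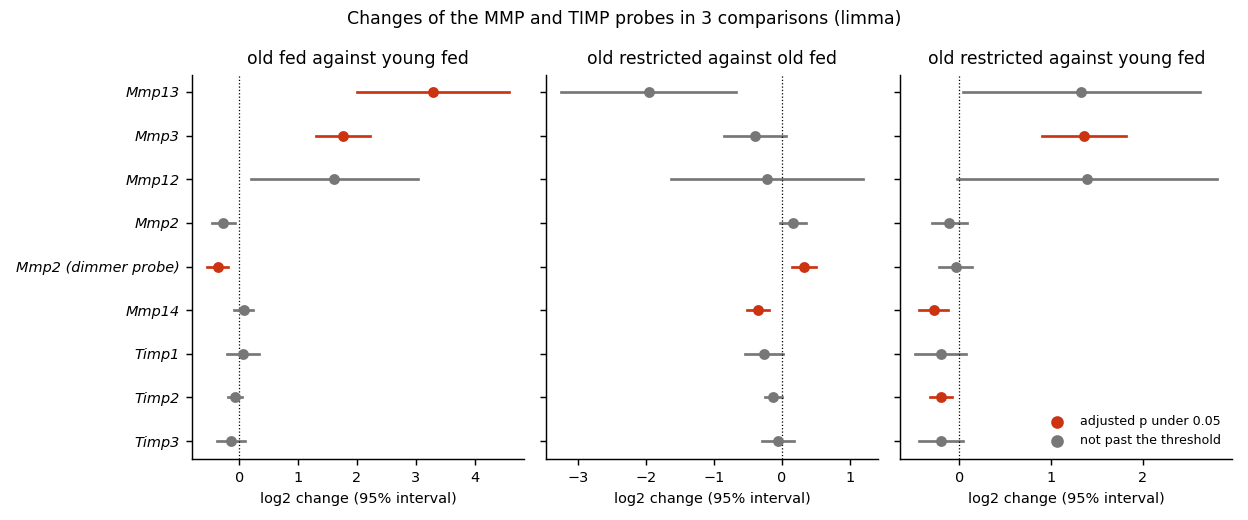
Log2 change of each tested member with its 95% interval in the 3 comparisons, red where the limma adjusted p was under 0.05 and grey where it was not; the dimmer Mmp2 probe comes from the fit of all probes. The intervals of Mmp13 and Mmp12 are the widest, and the change of Mmp3 lies clear of 0 against young rats on both diets.

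Among the inhibitors, Timp1, which is known to be induced by cytokines, was at 2.31, 2.26, 2.10 and 1.87 in young rats. Old freely fed rats had 2.26, 2.5, 2.19 and 1.82, and old restricted rats 1.93, 1.93, 1.92 and 1.95. Both freely fed groups spanned the restricted one. The difference with age was 0.06 (95% interval -0.22 to 0.34) and that between the old groups -0.26 (95% interval -0.54 to 0.02, limma adjusted p = 0.27). Restricted old and young rats differed by -0.20 (limma adjusted p = 0.34). The restricted animals lay within 0.03 of each other, against ranges of 0.68 in old freely fed and 0.44 in young rats, a contrast of spread that was not tested.

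Timp2, the inhibitor that also takes part in the activation of Mmp2, was at 5.90, 5.96, 5.75 and 5.83 in young rats. Old freely fed rats had 5.83, 5.89, 5.77 and 5.67, and old restricted rats 5.62, 5.66, 5.68 and 5.70. All restricted animals were below all young ones, and old freely fed replicate 4 lay among the restricted. Restricted old rats were lower than young rats by 0.20, a fold of 1.15 (SE 0.056, limma adjusted p = 0.049). This call stood close to the threshold and passed in 8 of 24 settings. Settings that lost it included quantile scaling, median centring, normexp followed by quantile scaling, no brightness trend and only the arrays compared. In the fits without 1 animal it passed in 3 of 12, with limma adjusted p-values up to 0.12, and was lost without young replicate 1, 2 or 4, old freely fed replicate 1 or 3 or any of the 4 restricted animals. The other differences of Timp2 were -0.07 with age and -0.13 between the old groups (95% interval -0.25 to -0.004, limma adjusted p = 0.23).

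Timp3, the inhibitor that binds to the matrix, was at -1.69, -1.92, -1.99 and -2.23 in young, -2.03, -2.03, -2.12 and -2.22 in old freely fed and -1.99, -2.17, -2.38 and -2.10 in old restricted rats. The 3 groups overlapped. Its differences were -0.14 with age (95% interval -0.38 to 0.10), -0.06 between the old groups and -0.20 between restricted old and young rats (95% interval -0.44 to 0.04), and the smallest of their limma adjusted p-values was 0.28.

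**Figure D3:**
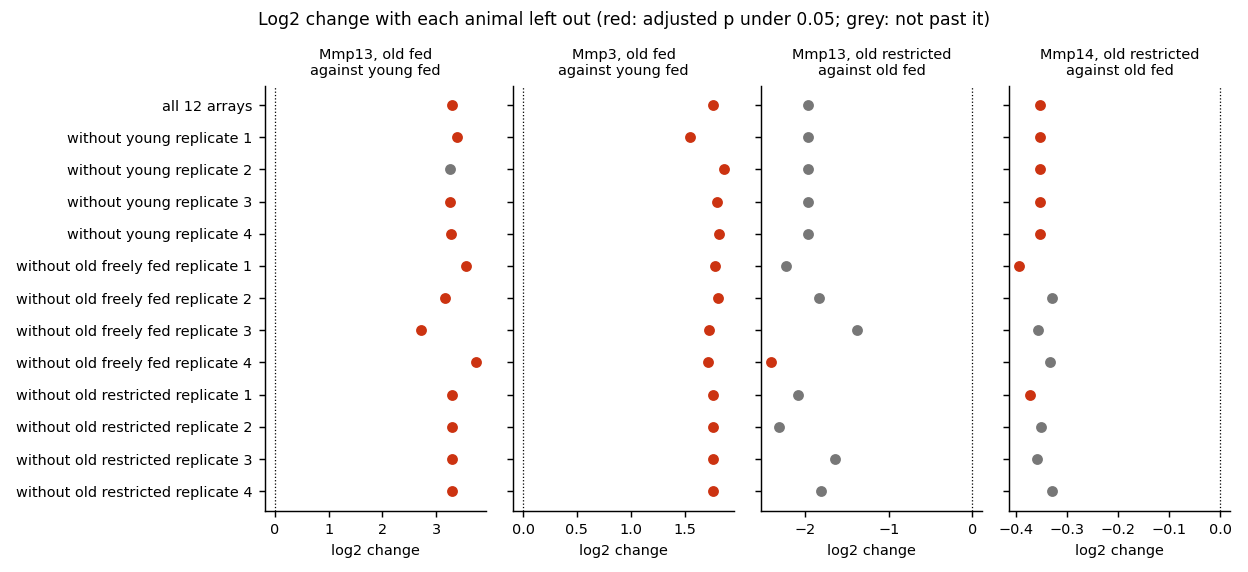
Log2 change of Mmp13 and Mmp3 with age and of Mmp13 and Mmp14 between the old groups, in the fit of all 12 arrays and with each animal left out in turn, red where the limma adjusted p was under 0.05. Mmp3 stays red throughout, Mmp13 loses its call without young replicate 2, and Mmp14 loses its call in 6 of the 12 fits.

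The genes that work with these enzymes were described by lists. With age 6 of the 91 genes tested in these lists passed, or 6.59%, against 3.72% of all genes. With age, no gene passed among 10 other tested MMP and Timp4 genes (median log2 change -0.05), 9 genes of the plasminogen system (0.09), whose plasmin activates several MMPs, and 10 activators, convertases and uptake receptors (0.03). In each of these 3 lists 3 genes had an unadjusted limma p under 0.05. Of 16 cathepsins and cystatins 2 rose: Ctsw, a protease of cytotoxic lymphocytes, 2.98-fold (limma adjusted p = 0.011), and Cst6, which encodes cystatin M, 1.45-fold (limma adjusted p = 0.036). Of 12 ADAM and ADAMTS proteases, relatives of the MMPs, Adamts7 fell 1.44-fold (limma adjusted p = 0.037). Of 20 MMP inducers 1 rose, the cytokine gene Il1a, at -4.52 in old freely fed rats against -7.27 in young rats, of which 1 of 4 was well above background (limma adjusted p = 0.045). Its fitted fold ran from 2.65 to 11.5 over the alternative settings.

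Among the matrix proteins that MMPs cut, 13 of 14 had a lower mean in old than in young freely fed rats, and 2 of them passed. Lamc1, which encodes a laminin chain, fell 1.32-fold (limma adjusted p = 0.032), and Col1a2, a chain of type I collagen, fell 1.20-fold (limma adjusted p = 0.034). The median of the list was -0.26. Over the 24 alternative settings Lamc1 passed in 17 and Col1a2 in 14. The fold of Col1a2 went down to 1.11 and its limma adjusted p up to 0.156. In fits without 1 animal Ctsw passed in 12 of 12, whereas Adamts7, Cst6, Il1a, Lamc1 and Col1a2 were each lost without young replicate 1, young replicate 2 or old freely fed replicate 2. Further losses came without young replicate 3 for all but Col1a2 and without young replicate 4 for Adamts7, Cst6 and Il1a. Without old freely fed replicate 3 all but Il1a were lost, and without replicate 4 of that group Adamts7, Lamc1 and Col1a2. Without old restricted replicate 2 the calls of Adamts7, Cst6, Col1a2 and Il1a were lost, and that of Il1a also without any of the other 3 restricted animals.

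Between the old groups 3 of the 91 genes of these lists passed, or 3.3%, near the 3.64% of all genes. No gene passed among other MMPs and Timp4 (median log2 change 0.01), the plasminogen system (-0.13) and the cathepsins and cystatins (-0.15). None passed among the activators and receptors (-0.04) and the inducers (-0.04). In the order named, these lists held 2, 2, 10, 1 and 5 genes at an unadjusted limma p under 0.05. The protease Adam19 was 1.35-fold lower in restricted rats (limma adjusted p = 0.019), a call lost without old freely fed replicate 1 or old restricted replicate 2. Of 14 matrix substrates, Tnc, which encodes tenascin C, was 1.48-fold higher in restricted rats (limma adjusted p = 0.011) and passed in all 12 fits without 1 animal. Spp1, which encodes osteopontin, was at least 1.77-fold lower (limma adjusted p = 0.025), with 0 of 4 restricted and 4 of 4 freely fed animals well above background. The call of Spp1 was lost without old freely fed replicate 1 or 2 or old restricted replicate 2, 3 or 4, and with normexp background correction, where its change was -0.30. Fos and Jun, whose proteins bind the AP-1 element, differed by -1.42 (limma adjusted p = 0.11) and -0.94 (limma adjusted p = 0.11), and neither passed. The other tested inducers of these families differed by -0.36 (Junb), -0.19 (Jund) and -0.03 (Fosl2), with limma adjusted p of 0.26 to 0.9. With age Fos differed by 0.25 and Jun by 0.10 (limma adjusted p of 0.77 and 0.86). Junb differed with age by 0.22, Jund by -0.04 and Fosl2 by 0.31, and none passed.

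In restricted old against young rats 8 of the 91 genes of these lists passed, or 8.79%, near the 9.18% of all genes. Of 12 ADAM and ADAMTS genes 4 were lower: Adam19 by 1.49-fold, Adamts7 by 1.70-fold, Adamts12 by 1.38-fold and Adamts15 by 1.31-fold (limma adjusted p of 0.0031, 0.004, 0.027 and 0.027). Mmp15, another membrane-bound MMP, was 1.51-fold lower (limma adjusted p = 0.029), and Timp4, the fourth inhibitor, was 1.40-fold higher with overlapping groups (limma adjusted p = 0.04). Among substrates Lamc1 was 1.33-fold and the type IV collagen gene Col4a1 1.42-fold lower (limma adjusted p of 0.015 and 0.02). No gene passed in the other 4 lists, the plasminogen system, cathepsins, activators and inducers, which held 3, 2, 2 and 7 genes at an unadjusted limma p under 0.05. Adam19, Adamts7 and Lamc1 passed in all 12 fits without 1 animal. Mmp15 was lost without restricted replicate 2, 3 or 4, and Col4a1 without young replicate 1 or 2 or restricted replicate 3. Adamts12 and Adamts15 were lost without young replicate 2 or 3 or restricted replicate 2 or 3, and Adamts15 also without restricted replicate 4. In these fits Timp4 passed only without young replicate 4, old freely fed replicate 2 or restricted replicate 3. The comparison shares its young rats with that of age, and Adamts7 and Lamc1 carry calls in both.

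**Figure D4:**
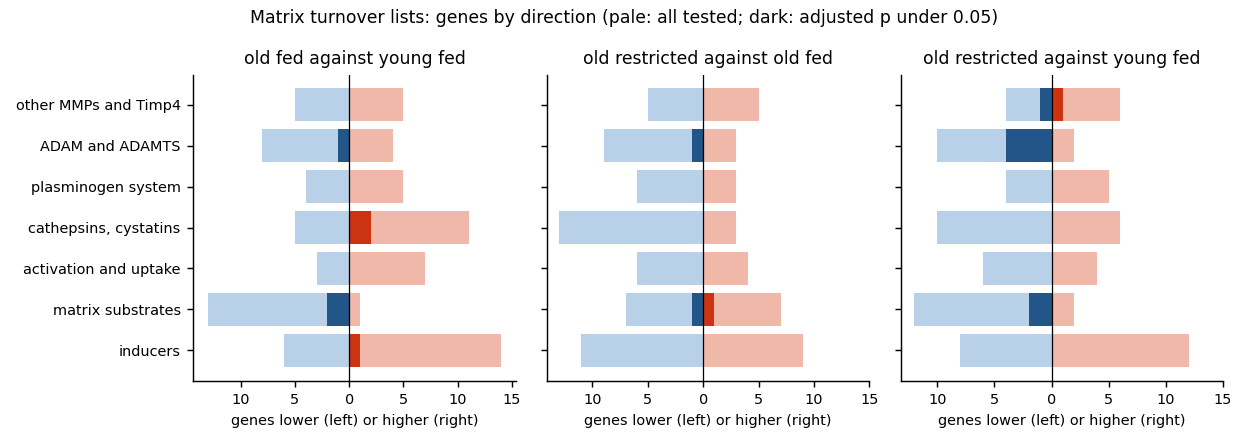
Number of tested genes of each matrix turnover list with a lower (left, blue) or higher (right, red) mean in the 3 comparisons, with those past a limma adjusted p of 0.05 in dark shades. With age 13 of 14 matrix substrates lie on the lower side and 2 of these pass; against young rats 4 of 12 ADAM and ADAMTS genes pass on the lower side in restricted rats.

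Markers of cell types differed between the same groups. The summed level of 10 T cell markers, of 12 listed, was 0.42 to 0.91 in young, 1.45 to 1.78 in old freely fed and 0.83 to 1.20 in old restricted rats, with Cd28 and Trat1 below background. With age 6 of these 10 rose (7 without old freely fed replicate 2), and with restriction 2 fell. Of 14 macrophage markers 13 had a higher mean in old than in young freely fed rats and 0 passed (5 at an unadjusted limma p under 0.05), 1 of them passing without old freely fed replicate 2, and Marco was below background. All 11 smooth muscle markers had a lower mean in old than in young freely fed rats, 10 at an unadjusted limma p under 0.05, and 3 of them passed. Without old freely fed replicate 2 the count was 0, while the median log2 change of the list was -0.29 against -0.30 with it. That fit also had fewer calls over all 20425 genes. With age there were 282 against 760, of which 90 against 428 were lower, and between the old groups 447 against 744. In restricted old against young rats 4 of the 11 smooth muscle markers were lower. Of 12 fibroblast markers 2 fell with age and 0 passed without that animal, with a median of -0.14 with it and -0.11 without it. Between restricted old and young rats 3 fibroblast markers were lower and 1 was higher. The summed smooth muscle level was 9.06 to 9.15 in young, 8.54 to 8.99 in old freely fed and 8.75 to 8.96 in old restricted rats.

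Further marker lists had lower means in restricted than in freely fed old rats, as Mmp14 did. For adipocytes this was so in 5 of 5 tested markers, all at an unadjusted limma p under 0.05 and 0 past the adjusted threshold, with a median log2 change of -0.83 (-0.47 without old freely fed replicate 2) and Lep below background. The adipocyte sum was 3.69 to 4.10 in young, 4.14 to 5.24 in old freely fed and 3.70 to 3.86 in old restricted rats. For mast cells it was so in 9 of 9 markers, 6 at an unadjusted limma p under 0.05 and 0 past the threshold, with a median of -0.95 (-0.74 without that animal). The mast cell sum was -0.56 to 0.63 in young, -0.65 to 1.32 in old freely fed and -1.02 to -0.48 in old restricted rats. Of 5 mesothelial markers 4 had a lower mean in restricted than in freely fed old rats, with a median of -0.35 (-0.10 without that animal). Krt8 went the other way, 0.29 higher in restricted rats with no overlap (limma adjusted p = 0.10). In this list 1 gene passed with age and 1 between the old groups, in both cases Slpi, which encodes a secreted protease inhibitor. Slpi rose 2.45-fold with age (limma adjusted p = 0.035) and was 2.58-fold lower in restricted than in freely fed old rats (limma adjusted p = 0.023). Without old freely fed replicate 2 the count with age was 0, in a fit with 282 age calls over all genes against 760. The mesothelial sum was 2.98 to 3.56 in young, 3.23 to 3.96 in old freely fed and 3.15 to 3.37 in old restricted rats. Means were also lower in restricted rats in 10 of 10 T cell, 7 of 7 neutrophil, 13 of 14 macrophage and 6 of 8 endothelial markers. Of these endothelial markers 1 passed, Pecam1, which was 1.29-fold lower (limma adjusted p = 0.047). Lower means were also found in 3 of 3 B and plasma cell, 4 of 4 prostate and seminal vesicle and 5 of 7 striated muscle markers. Means were higher in 11 of 14 urothelial, 6 of 11 smooth muscle, 6 of 12 fibroblast and 3 of 6 cartilage and bone markers. The part of any of these cell types in the Mmp14 difference was not tested.

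Other sources of MMP transcripts were looked at in the same way. Of 7 neutrophil markers tested, of 12 listed, 0 passed with age (3 at an unadjusted limma p under 0.05) and 1 fell with restriction (0 without old freely fed replicate 2), and the granule genes Elane and Ltf were below background. Of 6 tested cartilage and bone markers, tissues known for Mmp13, 0 passed with age (0 at an unadjusted limma p under 0.05), their summed level was -3.04 to -2.77 in young, -2.96 to -2.81 in old freely fed and -2.80 to -2.55 in old restricted rats, and Matn1 and Dmp1 were below background. Of these 6 the cartilage collagen gene Col2a1 was higher in restricted rats, 1.52-fold against freely fed old rats (limma adjusted p = 0.039) and 1.62-fold against young rats (limma adjusted p = 0.014). Of 12 listed genes of the prostate and seminal vesicle 8 were below background, among them Pbsn and Svs2, and 2 of the 4 tested fell with age (1 without old freely fed replicate 2). Their summed level was -2.63 to -0.96 in young, -3.69 to -2.92 in old freely fed and -3.97 to -3.51 in old restricted rats. Old freely fed replicate 3, the animal with the most Mmp13, had a macrophage sum of 5.85, within the 5.83 to 6.96 of its group, and the highest sum of the 20 inducers, 5.91 against 5.32 to 5.59. The part of these markers in the levels of Mmp13, Mmp3 and Mmp14 was not tested.

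**Figure D5:**
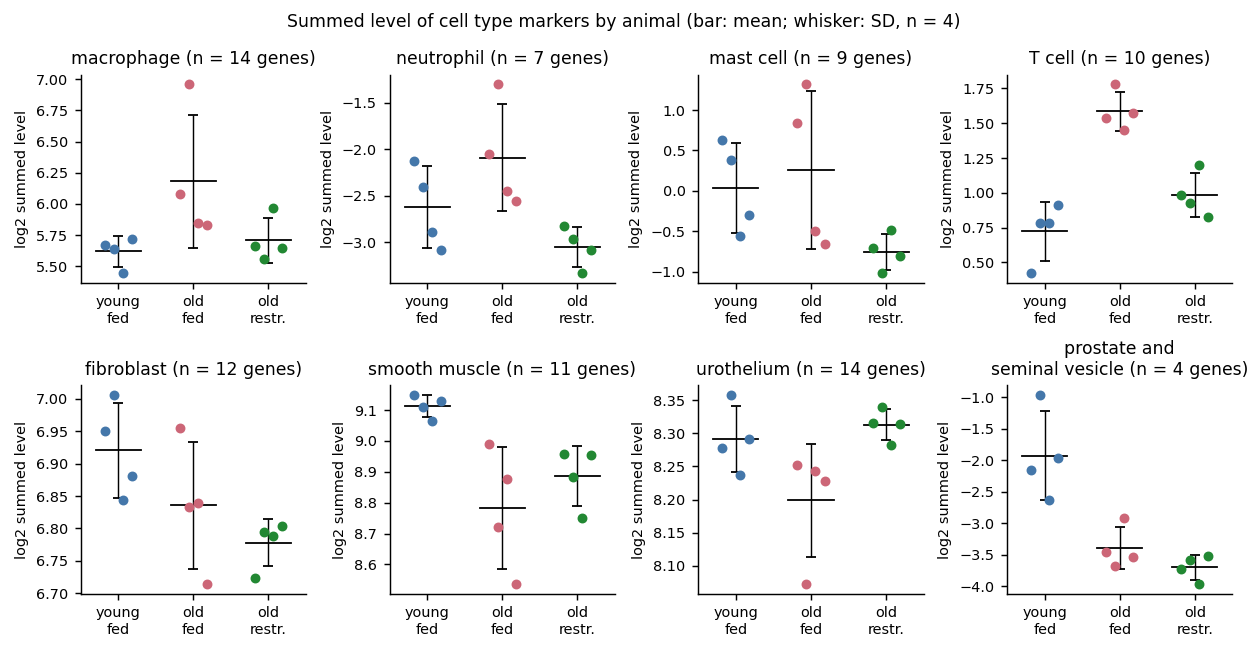
Log2 of the summed level of the tested marker genes of 8 cell types by animal, with the group mean as a bar and the SD (n = 4) as a whisker. The T cell sum lies higher in all old freely fed animals than in all others, the macrophage and neutrophil sums are highest in old freely fed replicate 2, and the sum for prostate and seminal vesicle is higher in all young animals than in any old one.

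The genes that varied most like Mmp13 and Mmp3 among animals of the same group were named by Pearson's r over the 12 arrays after the mean of each group was subtracted. For Mmp13 they were Nfia (r = 0.966), Zfp503 (r = 0.887) and Pde10a (r = 0.877). For Mmp3 they were Slc7a2 (r = 0.937), Grsf1 (r = 0.912) and Rps12l4 (r = 0.906). These are the highest of 12036 named genes with few arrays, and they share the scaling of each array. None of the 6 passed with age or between the old groups, whereas Zfp503 was lower in restricted old than in young rats, by 0.31 (limma adjusted p = 0.04).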

How the data were processed

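Cy3-labelled RNA of 12 bladders was read on Agilent arrays (design 028279, genome build rn4, per the file headers). The authors deposited scanner files with spot intensities that Agilent Feature Extraction 10.7, per the submitters' processing notes, had background-subtracted within each array. The deposited intensity table of the series equalled the processed signal in 100% of spots (relative tolerance 1e-06) and was not used further.

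Processed signals were put on the log2 scale and set against the 75th percentile of the 58717 non-control spots of their array, then averaged over the spots of a probe, without spots marked as outliers (91 averages had no other). RefSeq accessions named 17998 of 30367 probes (59.3%) through a GRCr8 table used for names and promoters. A probe was kept where all 4 arrays of some group had it well above background (23089 probes), and the brightest stood for its gene, leaving 20425 genes, 12036 of them named.

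limma 3.58 in R 4.3 was fitted to all 12 arrays (eBayes with a brightness trend; degrees of freedom were 9 residual and 2.72 prior). Tests were two-sided at 0.05 after Benjamini-Hochberg adjustment over all genes. Errors come from the spread pooled over the 3 groups, and precision is limited by the number of arrays. Where 0 of 4 arrays of the dimmer group were well above background, the fold is a lower bound against the dimmest signal well above background on each array.

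The members, gene lists and alternatives were chosen with earlier results of these data known. All members are named, as are up to 4 genes past the threshold per list and comparison (otherwise the 3 with the smallest adjusted p), the 3 genes most like Mmp3 and Mmp13, and markers at or below background. Fos, Jun, Junb, Jund, Fosl2, Slpi, Krt8, Pecam1, Col2a1 and the cluster genes were named outside this rule, after their values were seen. Alternatives covered scaling, normexp background correction (on median signals, as the files hold no mean signal), filters, probe choice, brightness trend, array weights, the arrays in the fit, a replicate block and leaving out each animal. The steps were tested on simulated data.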

Additional observations from a re-analysis of the deposited data

Results flagged for a closer look

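In old restricted rats, replicate 4 had the lowest level of the dimmer Mmp2 probe, 0.46 against 0.59 to 0.60 in the other 3 animals, a gap that takes 0.872 of the range of its group and exceeds the 95% critical value of Dixon's test for 4 samples. On the brighter Mmp2 probe the same animal had 3.43, between the others. Of 33 groups of 4 levels looked at (11 probes in 3 groups) this was the 1 past that value, and chance passes about 1 in 20.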

How the results depend on the processing

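In 639 values of the member probes under 24 alternative settings, 576 kept their side of the threshold, 61 lost a call, 2 gained one and 0 reversed. With only the arrays compared in the fit, 1 member passed with age instead of 2 (Mmp13 at limma adjusted p = 0.057). Against young rats 1 member passed in restricted rats instead of 3 with quantile scaling, median centring, normexp with quantile scaling, no brightness trend, and only the arrays compared: Mmp3 remained. Leaving out each animal gave 1 to 2 members with age, 0 to 1 between the old groups and 1 to 3 for restricted old against young rats. With no filter on dim probes 3 members passed with age, the added one being Mmp10, which was below background on all 12 arrays. Mmp2 passed with age under array weights (limma adjusted p = 0.03). Over all genes, counts moved by more than 1.5 times from 760 (age), 744 (old groups) and 1874 (restricted against young): to 94 and 478 (age, old groups) with only the arrays compared, 1556 and 1844 with array weights, 3568 and 3259 (age, restricted against young) with no filter, and, for age, 462 with normexp and quantile scaling and 440 without the trend. Leaving out 1 animal gave 121 to 927, 268 to 848 and 737 to 2089. Of the age calls 332 were higher and 428 lower, against 376 and 269 with quantile scaling 355 and 306 with median centring and 265 and 197 with normexp and quantile scaling. Between the old groups 331 were higher and 413 lower, against 580 and 325 with normexp. The cause was not tested. Same-numbered arrays did not deviate together (r = -0.19 to 0.0951, 0 of 12 pairs over 0.1, and 3 of 12 arrays most like their own number). With a replicate block 2, 1 and 2 members passed, with 498, 498 and 1804 of all genes. Of 17 calls of pathway genes in 406 values, 91 were lost and 0 reversed. Dim signal limits Mmp9, Mmp10 and Mmp12 in young rats. Mmp13 and Mmp3 were well above background in all young rats, but the sizes of their rises with age also depend on the treatment of background. With normexp background correction they came to 5.59-fold and 2.13-fold, against 9.82-fold and 3.39-fold.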
